A study of Mus musculus with 18 samples.

Results

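The genes described here are the enzymes that carry glucose through glycolysis to lactate and the enzymes that build and break down muscle glycogen, with their main isozymes and direct regulators. A gene was taken as a member by its symbol, and its value was the mean of the probesets that carried that symbol alone in the platform annotation. Of the 35 genes listed, 31 were measured in this way, out of 22180 genes in all. *Gpi1*, *Pfkfb1* and *Eno1* had no such probeset and *Aldoa* lay on a probeset that it shared with *Aldoart1*, so these 4 genes were not analysed here. Of the 31 genes, 29 rested on 1 probeset each. *Pgam1* had 2 probesets and *Gapdh* had 3.

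The gastrocnemius, a calf muscle, was taken from 9 wild-type mice that had been injected into the muscle of 1 leg with 30 µg of tunicamycin in 30 µL and into the other leg with saline, and both muscles were collected 24 h later. Tunicamycin blocks N-linked glycosylation and thereby causes stress of the endoplasmic reticulum (ER). RNA of every muscle was measured on its own MoGene-2_0-st array, which gave 9 saline and 9 tunicamycin arrays, and the comparison asked how ER stress changes the transcripts of a tissue. Per the labels the mice were female on a mixed C57Bl6/J-SV129 background. The study's methods instead describe male C57BL/6J mice bought at 8 weeks of age and acclimated for 2 weeks, and the labels give no age. The control was the opposite leg of the same animal, so effects that reach both legs do not enter the comparison.

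Skeletal muscle stores glucose as glycogen and draws on it during contraction. Glycogen phosphorylase releases glucose units once phosphorylase kinase has phosphorylated it, and glycogen synthase and the branching enzyme rebuild the polymer. Fast fibres then send these units through glycolysis, with phosphofructokinase as the main point of control, and export much of the product as lactate.

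The values are log2 signals, and changes are given as tunicamycin minus saline within a mouse with their standard error (SE) as moderated by limma, over 9 mice. A gene was called higher or lower at a Benjamini-Hochberg adjusted p under 0.05 over all 22180 genes. Array medians ran from 4.99 to 5.07 and the correlations between arrays from 0.982 to 0.991. The ER stress marker genes were called higher in 9 of 9 cases, and their mean rose by 0.56 in mouse 1, by 0.59 in mouse 9 and by 1.02 to 1.55 elsewhere. The fast fibre marker genes, which mark the main fibres of this muscle, had a mean log2 signal of 11.9 to 12.1 on every array, and 0 of 12 were called. Both legs of mouse 9 had a *Xist* signal of 4.79 and 4.90, against 9.22 to 9.52 on the other arrays, so mouse 9 stood apart in a gene expressed in females, while the Y-linked genes *Kdm5d*, *Eif2s3y* and *Uty* were no higher in mouse 9 than the highest of the other mice. Results are therefore also given without mouse 9.

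In the tunicamycin legs some transcripts of glycogen metabolism and its control were lower, and most of the glycolytic chain was not called. Of the 31 genes, 6 were called lower (19.4%), where 6.15% of all genes were called lower, and 1 was called higher (3.23%), where 4.72% of all genes were called higher. The 6 lower genes were *Fbp2*, *Pfkfb3*, *Phka1*, *Phkg1*, *Gys1* and *Gbe1*, and the higher gene was *Pfkp*. The median change of the 31 genes was -0.03, beside 0.0064 over all genes tested, and 20 of the 31 changes were negative. At an unadjusted p under 0.05, 13 genes were lower and 3 were higher. The share of all genes past this unadjusted threshold was not counted, so these counts cannot set the members apart from other genes. Without the mouse as a block, *Pfkfb3*, *Phka1* and *Phkg1* were no longer called (adjusted p = 0.203, 0.0558 and 0.0520). With the slow fibre and adipocyte means of each array as covariates, 0 members were called. In that fit only 0.839% of all genes were called lower and 1.02% higher. The changes of the 7 genes kept their direction there, from -0.29 for *Fbp2* and -0.31 for *Pfkfb3* to 0.36 for *Pfkp*.

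The share of lower calls has to be read against the level of these genes, since 30 of the 31 had a saline signal above that of the median gene. Of all genes above the median level, 11.3% were called lower and 6.86% were called higher. In the top 10% of saline level, where 20 of the 31 members lay, 20.4% of all genes were called lower, beside 5 of these 20 members. The share among the members was thus close to that of other strongly expressed genes. The changes were small: the largest called change was that of *Fbp2*, 0 members reached a 1.5-fold change, and the saline and tunicamycin values of 0 members were fully separated, where this held for 0.564% of all genes.

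**Figure D1:**
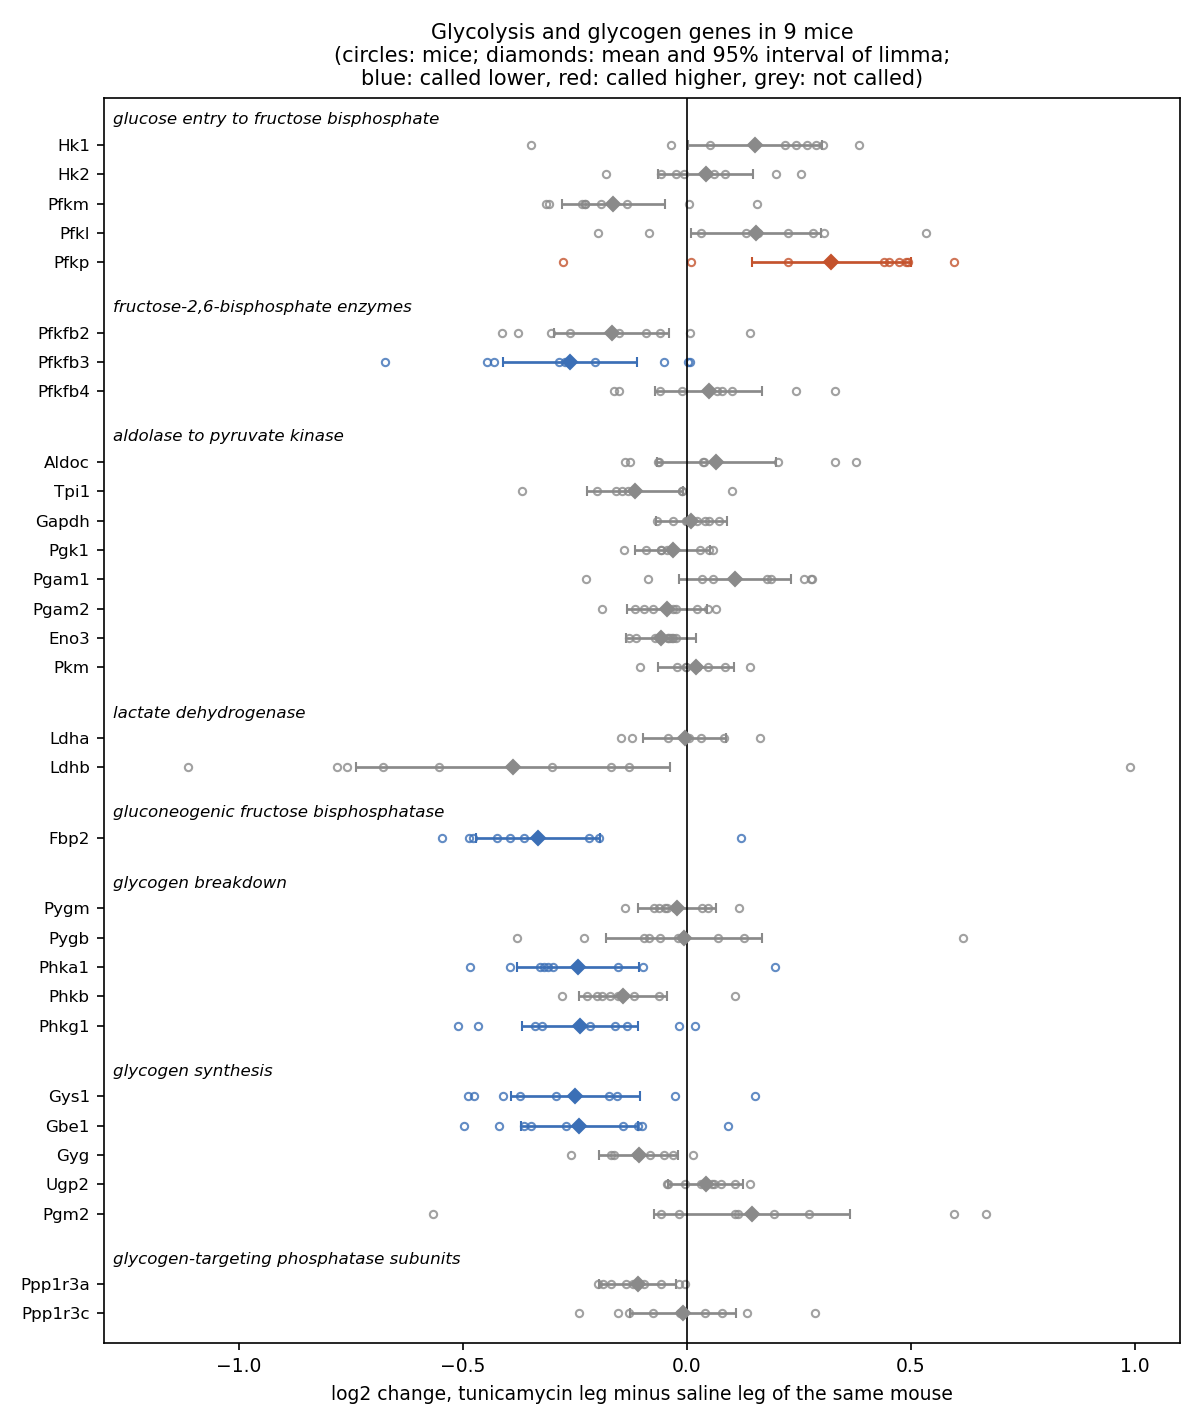
Log2 change (tunicamycin leg minus saline leg, horizontal axis) of the 31 measured genes, grouped by role, with circles for the 9 mice and diamonds with bars for the mean and 95% interval of limma. The 6 genes called lower (blue) belong to fructose bisphosphate control, phosphorylase kinase and glycogen synthesis, the 1 gene called higher (red) is *Pfkp*, and the genes from aldolase to pyruvate kinase lie near 0.

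*Fbp2*, the muscle fructose bisphosphatase that runs against phosphofructokinase, had the smallest p of all members. Its log2 signal was 7.47, 7.69 and 7.95 (lowest, median and highest) in the saline legs and 7.17, 7.30 and 7.59 in the tunicamycin legs. Of the 9 tunicamycin legs, 6 lay below the lowest saline leg, and the other 3 overlapped with the saline range. The change was -0.33 ± 0.064 (SE, n = 9), a signal change of -20.5%, with a limma adjusted p of 0.00772. It was negative in 8 mice, at -0.55 to -0.20, and positive in mouse 9, at 0.12. When any 1 mouse was left out the gene stayed called lower, with changes of -0.39 to -0.30.

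*Pfkfb3* encodes a bifunctional enzyme that sets the level of the phosphofructokinase activator fructose 2,6-bisphosphate. Its log2 signal was 8.40, 8.95 and 9.51 in the saline legs and 8.35, 8.67 and 9.06 in the tunicamycin legs. The groups overlapped over most of their range, and the spread among saline legs was wider than the change. The change was -0.26 ± 0.069 (SE, n = 9; adjusted p = 0.0308 by limma), lower in 7 mice and within 0.01 of 0 in mice 5 and 9. The call was lost without any 1 of mice 3, 4, 6, 7 and 8 (limma adjusted p = 0.0544 to 0.0781). The changes over all fits without 1 mouse were -0.30 to -0.21. Without any 1 of mice 2 to 7, fewer of all genes were called as well, 1304 to 1565 beside 2410. A lost call, here and below, thus does not by itself show that a change rests on the mouse left out. Of the related enzymes, *Pfkfb2*, the form typical of heart, changed by -0.17 (adjusted p = 0.0914) and *Pfkfb4* by 0.05 (adjusted p = 0.643), neither of which passed the test.

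Phosphorylase kinase switches glycogen phosphorylase on, and of its 3 subunit genes among the members, 2 were called lower. *Phka1*, the muscle form of the regulatory alpha subunit, had log2 signals of 10.28, 10.49 and 10.70 in the saline legs and 9.91, 10.27 and 10.55 in the tunicamycin legs. *Phkg1*, the muscle form of the catalytic gamma subunit, had 9.72, 10.002 and 10.08 in the saline legs and 9.42, 9.74 and 10.05 in the tunicamycin legs. In both genes the tunicamycin legs reached well below the lowest saline leg, while the upper part of their range overlapped with the saline legs. *Phka1* changed by -0.24 ± 0.063 (SE, n = 9; limma adjusted p = 0.0280) and *Phkg1* by -0.24 ± 0.060 (SE, n = 9; limma adjusted p = 0.0242), each lower in 8 mice. *Phkb*, the beta subunit, changed by -0.14 ± 0.046 (SE, n = 9), also lower in 8 mice, and missed the threshold at an adjusted p of 0.0620. Outside the members, *Phka2*, another form of the alpha subunit, was also called lower, by -0.23 (limma adjusted p = 0.0219, lower in 8 mice). *Phkg2*, another form of the gamma subunit, changed by 0.03 and was not called (limma adjusted p = 0.773). Both are named here after their values were seen.

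The same mouse stood apart for the 3 subunits among the members. In mouse 9 the changes of *Phka1*, *Phkb* and *Phkg1* were 0.20, 0.11 and 0.02, and in mouse 1 they were -0.10, -0.06 and -0.02. In the other 7 mice the changes of the 3 subunits ran from -0.51 to -0.12. Mice 1 and 9 were also those with the smallest rise of the ER stress markers. The *Phka1* call was lost without any 1 of mice 2, 3, 4, 5, 6 and 8 (limma adjusted p = 0.0547 to 0.0730). The *Phkg1* call was lost without mouse 3, 4 or 7 (limma adjusted p = 0.0588 to 0.0648). Over all fits without 1 mouse the changes were -0.30 to -0.21 for *Phka1* and -0.27 to -0.20 for *Phkg1*. In the fit without mouse 9, 8 members were called lower, namely the 6 above with *Phkb* and *Pfkm*. In that fit 2 were called higher, *Pfkp* and the hexokinase gene *Hk1*, and both sets were the same without mice 1 and 9. Of all genes, 6.53% were called lower and 6.03% higher without mouse 9, and 7.42% and 7.05% without mice 1 and 9.

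The phosphorylase genes were not called. *Pygm*, the muscle form, had log2 signals of 12.33, 12.39 and 12.46 in the saline legs and a change of -0.02 with a 95% interval of -0.11 to 0.07. *Pygb*, the brain form, changed by -0.01 with an interval of -0.18 to 0.17, and its change in mouse 1 was 0.62. The interval of *Pygm* is narrow, so a change of the size seen in *Phka1* lay outside it, whereas that of *Pygb* is wide.

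**Figure D2:**
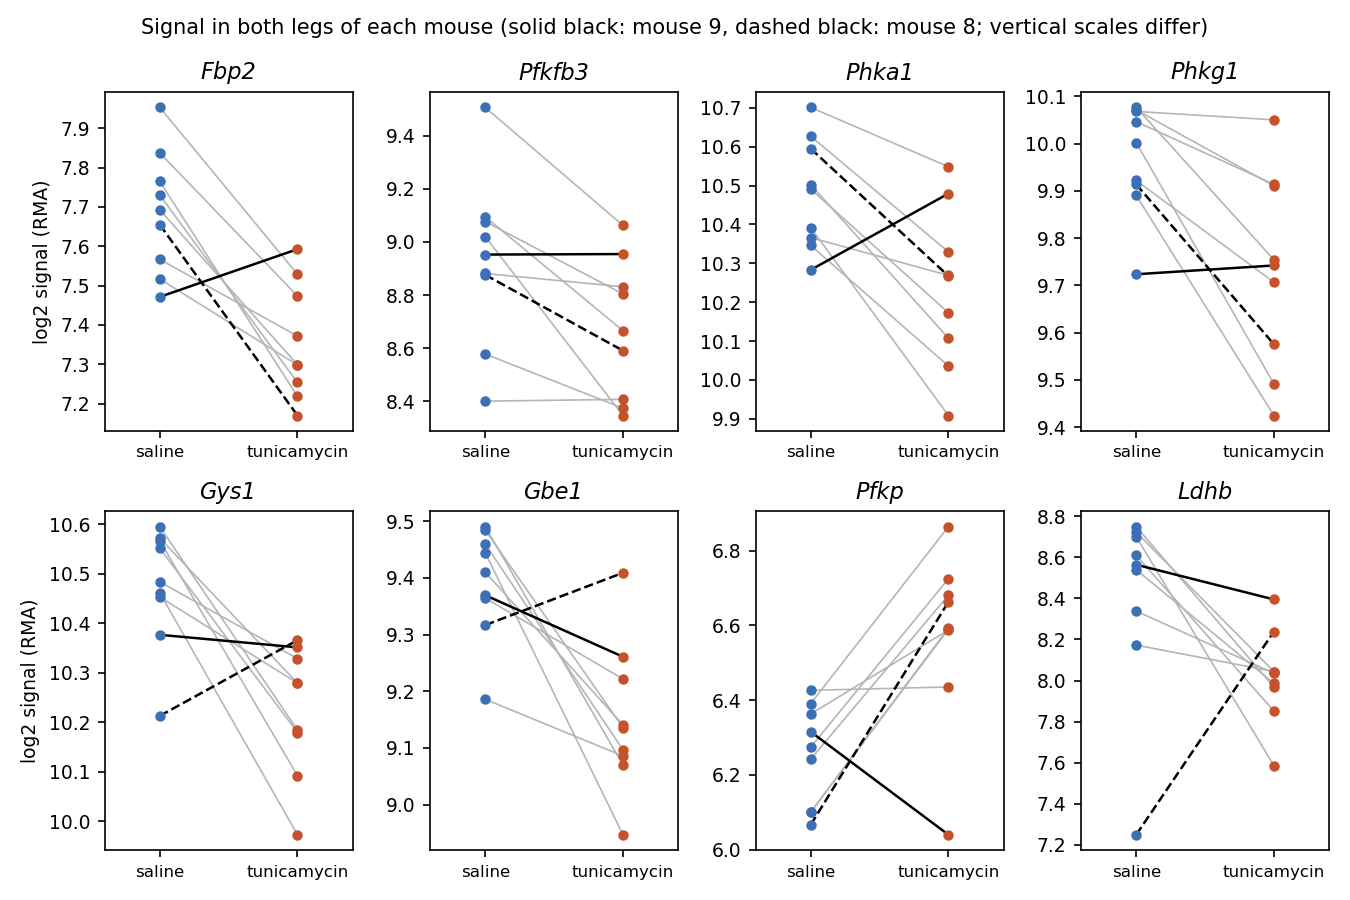
Log2 signal (vertical axis, scales differ between panels) in the saline leg (blue) and the tunicamycin leg (red) of each of the 9 mice for the 7 called genes and *Ldhb*, with a line for each mouse. Mouse 9 (solid black) went against the other mice for *Fbp2*, *Phka1* and *Pfkp*, and mouse 8 (dashed black) for *Gys1*, *Gbe1* and *Ldhb*.

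On the side of synthesis, the enzymes that lengthen and branch the polymer were called lower. *Gys1*, the muscle glycogen synthase, had log2 signals of 10.21, 10.48 and 10.60 in the saline legs and 9.97, 10.28 and 10.37 in the tunicamycin legs. *Gbe1*, the glycogen branching enzyme, had 9.19, 9.41 and 9.49 in the saline legs and 8.95, 9.14 and 9.41 in the tunicamycin legs. For both, the lowest saline leg lay inside the tunicamycin range, which was shifted downward as a whole. *Gys1* changed by -0.25 ± 0.067 (SE, n = 9; limma adjusted p = 0.0317) and *Gbe1* by -0.24 ± 0.060 (SE, n = 9; limma adjusted p = 0.0244), each lower in 8 mice. Here mouse 8 was the exception, with changes of 0.15 and 0.09. Its saline leg was the lowest of all saline legs for *Gys1*, and its tunicamycin leg was the highest of all tunicamycin legs for both genes. The *Gys1* call was lost without any 1 of mice 2 to 7 (limma adjusted p = 0.0557 to 0.0788). The *Gbe1* call was lost without any 1 of mice 2, 3, 5 and 6 (limma adjusted p = 0.0530 to 0.0644). Over all fits without 1 mouse the changes were -0.30 to -0.22 for *Gys1* and -0.28 to -0.21 for *Gbe1*.

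The remaining genes of synthesis were not called. *Gyg*, which encodes glycogenin, the protein primer of the polymer, changed by -0.11 (adjusted p = 0.115; lower in 8 mice). *Ugp2*, which makes the glucose donor UDP-glucose, changed by 0.04, and *Pgm2* by 0.15 with values of -0.57 to 0.67 over mice. The *Pgm2* of the annotation (gene ID 66681) is a relative of the main phosphoglucomutase of muscle, which was not analysed here, and it is counted under synthesis only by its place in the list. The subunits that bring protein phosphatase to glycogen, where it activates the synthase, gave -0.11 for *Ppp1r3a* (adjusted p = 0.0965) and -0.01 for *Ppp1r3c*. *Ppp1r3a* was lower in 9 of 9 mice, at -0.20 to -0.00, as was *Eno3*, the muscle enolase, with a change of -0.06 (adjusted p = 0.346). In these 2 genes every mouse had the same direction, and neither change passed the test.

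The promoters of 4 of these genes are shown because they carry sequence matches that recur among the members, 3 in genes called lower and *Pygm* as the gene of the same pathway without a call. They are RefSeq sequences of build GRCm38.p6, from 250 bases before to 50 bases after an annotated start, read 5′ to 3′ along the gene. Capitals mark matches on either strand to the E-box CACGTG, the muscle E-box CAGCTG, the hypoxia core ACGTG or CTANNNNTAG. The last is a loose pattern for the MEF2 motif that allows any 4 inner bases. The regions are chr13:62858351-62858650 (minus strand) for *Fbp2*, chrX:102644197-102644496 (minus strand) for *Phka1*, chr7:45434589-45434888 (plus strand) for *Gys1* and chr19:6384158-6384457 (plus strand) for *Pygm*.
Fbp2: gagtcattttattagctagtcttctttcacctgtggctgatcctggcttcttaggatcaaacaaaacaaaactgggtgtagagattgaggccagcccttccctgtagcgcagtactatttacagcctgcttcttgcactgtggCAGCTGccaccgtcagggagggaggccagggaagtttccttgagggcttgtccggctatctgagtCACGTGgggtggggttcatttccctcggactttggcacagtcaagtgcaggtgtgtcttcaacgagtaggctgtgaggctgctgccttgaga
Phka1: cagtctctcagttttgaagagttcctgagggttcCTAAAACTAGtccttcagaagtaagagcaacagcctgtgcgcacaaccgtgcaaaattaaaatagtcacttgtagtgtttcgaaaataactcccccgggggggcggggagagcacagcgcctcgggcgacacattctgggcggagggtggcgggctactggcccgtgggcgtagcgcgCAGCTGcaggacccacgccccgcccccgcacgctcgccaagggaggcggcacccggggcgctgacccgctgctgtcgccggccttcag
Gys1: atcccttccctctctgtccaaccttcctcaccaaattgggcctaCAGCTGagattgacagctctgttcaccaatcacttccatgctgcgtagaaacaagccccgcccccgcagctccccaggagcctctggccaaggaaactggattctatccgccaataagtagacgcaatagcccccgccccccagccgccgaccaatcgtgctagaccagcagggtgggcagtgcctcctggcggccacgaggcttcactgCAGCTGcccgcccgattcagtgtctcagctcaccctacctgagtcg
Pygm: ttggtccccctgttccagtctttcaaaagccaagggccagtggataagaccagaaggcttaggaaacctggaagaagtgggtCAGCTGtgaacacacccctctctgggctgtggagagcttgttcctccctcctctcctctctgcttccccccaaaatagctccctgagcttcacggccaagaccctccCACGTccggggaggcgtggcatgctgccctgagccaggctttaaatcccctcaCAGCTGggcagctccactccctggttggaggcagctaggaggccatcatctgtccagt
The *Fbp2* promoter held CAGCTG from -107 and CACGTG from -42 relative to the start. In *Phka1*, a match to the loose MEF2 pattern, CTAAAACTAG, lay at the distal end. It has a C among the inner bases, where the MEF2 motif has A or T. CAGCTG, an E-box that muscle regulators such as MyoD can bind, began at -38 in *Phka1*. *Gys1* and *Pygm* each held CAGCTG at 2 positions, and *Pygm* also held ACGTG on the opposite strand.

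Over all members, 42 RefSeq promoters were available, covering the 31 genes, and 9 motifs were searched on both strands among these and 32851 promoters in all. ACGTG, the core of the hypoxia response element, was found in 21 of 42 member promoters and in 19.6% of all promoters. CACGTG, which contains ACGTG on both strands, was found in 16.7% and 7.15%, and CAGCTG in 28.6% and 16.3%. Member promoters were also richer in GC, with a median of 59.7% against 52.7%. Among the genes called lower, *Fbp2* and *Pfkfb3* held ACGTG, and *Gapdh*, *Pgk1*, *Pkm* and *Ldha*, which were not called, held it as well. The loose pattern CTANNNNTAG was found in 7.14% of member promoters and 3.69% of all (*Ldhb*, *Phka1* and *Ppp1r3a*). Among these member matches only that of *Ppp1r3a*, CTATTTATAG, had A or T at every inner base. TCAGGTT, the MEF3 motif, was found in 4.76% and 4.07%. The D-box TTANGTAA, bound by the factors of the PAR and NFIL3 family, was found in 0 member promoters and 2.32% of all. Of the motifs of the ER stress and cAMP responses, the UPRE TGACGTGG, which contains ACGTG, was found in *Hk2* alone, the CRE TGACGTCA in *Ldha* alone, and the ERSE, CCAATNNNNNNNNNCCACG, in 0 member promoters. These are matches of letters in a short window, and they were not tested for binding.

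At the entry of glycolysis the isozymes of phosphofructokinase differed in their changes, and only *Pfkp* was called on its own. *Pfkp*, the platelet form, had log2 signals of 6.07, 6.27 and 6.43 in the saline legs and 6.04, 6.59 and 6.86 in the tunicamycin legs. All but 1 of the tunicamycin legs lay above the highest saline leg, the exception being mouse 9. The change was 0.32 ± 0.082 (SE, n = 9; limma adjusted p = 0.0261), higher in 8 mice, at 0.01 in mouse 3 and at -0.28 in mouse 9. The call was lost without any 1 of mice 2, 4, 5, 6 and 8 (limma adjusted p = 0.0557 to 0.0668). The changes over all fits without 1 mouse were 0.29 to 0.40.

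*Pfkm*, the muscle form, had log2 signals of 11.11, 11.42 and 11.59 in the saline legs and 11.02, 11.27 and 11.42 in the tunicamycin legs. Its change was -0.16 ± 0.053 (SE, n = 9; limma adjusted p = 0.0661), lower in 7 mice, and did not pass the threshold. *Pfkl*, the liver form, changed by 0.15 (adjusted p = 0.167). The difference between the forms was tested within mice by an exact sign-flip permutation test (two-sided), with p adjusted over the 6 pairs of isozymes that could be tested. The change of *Pfkm* was lower than that of *Pfkl* by a mean of -0.32 (SD 0.21, n = 9, 8 of 9 mice; exact p = 0.00781, adjusted p = 0.0469) and lower than that of *Pfkp* by a mean of -0.49 (SD 0.39, n = 9, 8 of 9 mice; exact p = 0.0156, adjusted p = 0.0469). With 9 mice the smallest p that this test can give is 0.00391. *Pfkm* had a much higher signal than the other forms, and the test took no account of level. The *Pfkl* difference lost its call without any 1 of mice 1 to 6 (means of -0.34 to -0.28) and the *Pfkp* difference without any 1 of mice 1 to 8 (means of -0.51 to -0.45). With 1 mouse fewer the smallest p of this test is larger. These lost calls therefore do not show that the differences rest on single mice.

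The other isozyme pairs did not pass the adjusted threshold. For phosphoglycerate mutase, the muscle form *Pgam2* minus *Pgam1* gave -0.15 (95% interval -0.28 to -0.02; exact p = 0.0352, adjusted p = 0.0703). The 2 probesets of *Pgam1* disagreed, at -0.06 and 0.28, so that its mean change of 0.11 depends on the probeset; with the brighter probeset alone *Pgam1* was called higher (adjusted p = 0.0376). Hexokinase gave -0.11 for *Hk2*, the insulin-responsive muscle form, minus *Hk1* (interval -0.30 to 0.08), with changes of 0.04 and 0.15 that did not pass the test. For phosphorylase, *Pygm* minus *Pygb* was -0.02 (interval -0.22 to 0.19). The aldolase and enolase pairs could not be tested, since *Aldoa* and *Eno1* were not measured.

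**Figure D3:**
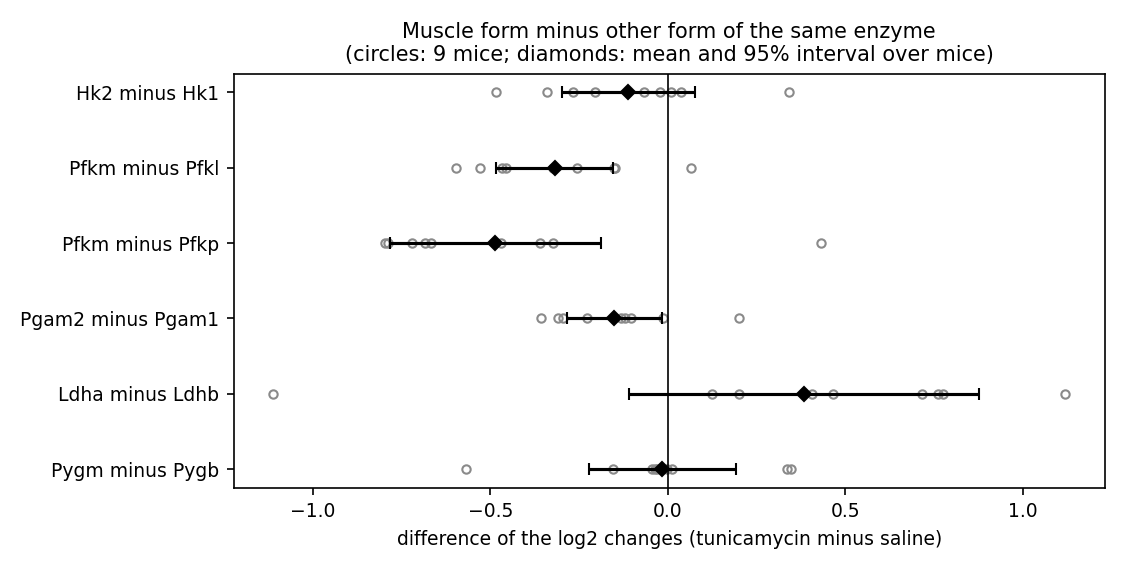
Difference between the log2 changes of the muscle form and another form of the same enzyme (horizontal axis), with circles for the 9 mice and diamonds with bars for the mean and 95% interval over mice. The *Pfkm* differences from *Pfkl* and *Pfkp* have means of -0.32 and -0.49 and intervals below 0, while *Ldha* minus *Ldhb* spreads widely.

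From aldolase to pyruvate kinase, 0 of 8 genes were called, and the median change was -0.01. *Tpi1*, the triose phosphate isomerase, had the smallest p of this stretch, with a change of -0.12 (adjusted p = 0.158; lower in 8 mice). *Gapdh*, a glycolytic dehydrogenase often used as a reference gene, changed by 0.01 with a 95% interval of -0.07 to 0.09, and its 3 probesets gave -0.02, -0.00 and 0.05. *Pkm*, the pyruvate kinase of muscle, changed by 0.02 (interval -0.06 to 0.11). *Pgk1*, the phosphoglycerate kinase, gave -0.03, *Pgam2* -0.04 and *Aldoc*, the brain aldolase, 0.07. The intervals of *Gapdh* and *Pkm* stayed within 0.11 of 0, whereas those of *Tpi1* and *Aldoc* were wider.

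Lactate dehydrogenase had the widest contrast in spread of any enzyme described here. *Ldha*, which favours lactate production, changed by -0.00 (interval -0.10 to 0.09). Its 1 probeset had a mean log2 signal of 7.22 in the saline legs, below the 8.41 of *Ldhb*. How well that probeset responds was not assessed, which limits the reading of its small change. *Ldhb*, the form of oxidative fibres and heart, had log2 signals of 7.25, 8.56 and 8.75 in the saline legs and 7.59, 8.04 and 8.39 in the tunicamycin legs. It was lower in 8 mice, at -1.11 to -0.13, and higher by 0.99 in mouse 8, whose saline leg gave the lowest value of all. The mean change of -0.39 ± 0.16 (SE, n = 9) was not called (limma adjusted p = 0.150). Without mouse 8 it was -0.56 and was called lower (adjusted p = 0.00717), and without any 1 of the other mice it was not called. *Ldha* minus *Ldhb* was 0.38 (interval -0.11 to 0.88; exact p = 0.109, adjusted p = 0.164).

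Markers of slow fibres varied widely between legs, with *Ldhb* in some mice and against it in others. The mean of 10 slow fibre genes ran from 7.29 to 9.04 in the saline legs and from 7.29 to 8.16 in the tunicamycin legs, and 0 of 10 were called. The saline leg of mouse 8 had the lowest slow fibre level of the saline legs, at 7.29, and the change of the list was 0.52 in mouse 8 and -1.75 in mouse 2, the mouse with the lowest *Ldhb* change. In mice 4, 6 and 9 the signs were opposite: the slow fibre change was 0.11, 0.40 and 0.06 and the *Ldhb* change -0.30, -0.76 and -0.17. With the slow fibre mean of each array as a covariate, an alternative chosen after seeing the data, *Ldhb* changed by -0.22 (adjusted p = 0.421). In bulk muscle, fewer fibres of a type and less RNA per fibre cannot be told apart.

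Markers of leukocytes changed as well, and mouse 9 stood apart in them as it did for some called members. Of 14 macrophage and monocyte genes, 5 were called higher and 1 lower, and of 13 neutrophil genes 6 were called higher and 0 lower. The counts of called marker genes in this paragraph stand beside 4.72% higher and 6.15% lower over all genes, and no share was tested. The macrophage mean ran from 6.06 to 6.75 in the saline legs and from 6.32 to 7.18 in the tunicamycin legs. Its change was -0.10 in mouse 1 and -0.36 in mouse 9, whereas mice 2 to 8 gave 0.33 to 0.71. Mouse 9 was also the mouse in which *Pfkp* was lower and in which *Fbp2*, *Phka1*, *Phkb* and *Phkg1* were higher. In mouse 1, by contrast, the called members kept the direction of their mean change. There *Pfkp* changed by 0.47, *Pfkfb3* by -0.67, *Gbe1* by -0.42, *Fbp2* by -0.20, *Gys1* by -0.17, *Phka1* by -0.10 and *Phkg1* by -0.02. With the macrophage mean as a covariate, an alternative likewise chosen after seeing the data, *Pfkp* changed by 0.16 (adjusted p = 0.495) and *Fbp2* by -0.18 (adjusted p = 0.290), and 0 members and 63 genes in all were called. In the same fit *Pfkfb3* changed by -0.30, *Gbe1* by -0.19, *Phkg1* by -0.14, *Gys1* by -0.12 and *Phka1* by -0.08. The macrophage mean was itself higher in the tunicamycin legs of mice 2 to 8, so this fit cannot tell it apart from the treatment. No conclusion is drawn from how the changes of single genes differ in it. Of the other phosphofructokinase forms, *Pfkm* changed by -0.02 and *Pfkl* by 0.27 in this fit. The leukocyte lists and the ER stress markers had their lowest changes in the same mice, 1 and 9, and the part of either in the results was not tested. Of the other lists, 2 of 9 fibroblast genes were called higher, 3 of 8 smooth muscle genes were called lower, and 0 of 8 endothelial and 0 of 7 adipocyte genes were called; the adipocyte mean changed by 1.57 in mouse 1 and by -1.22 to 0.22 in mice 2 to 8.

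**Figure D4:**
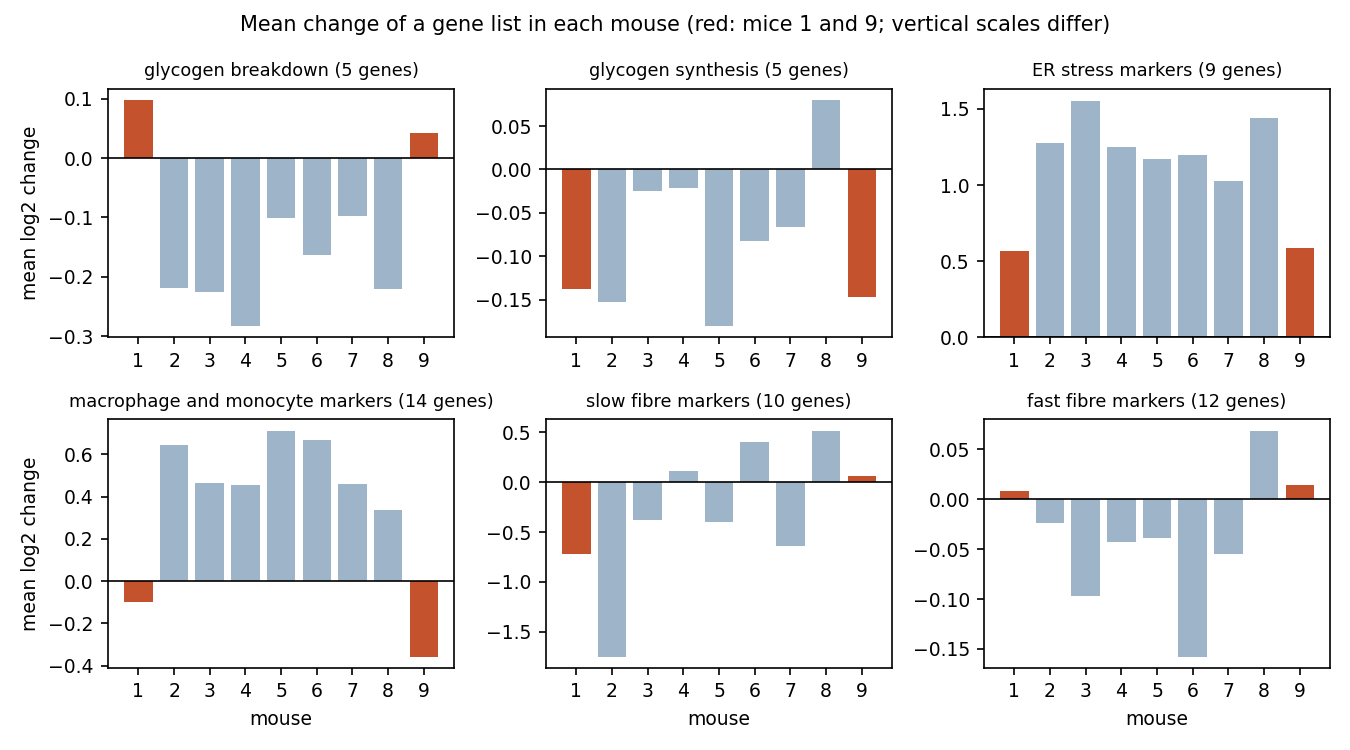
Mean log2 change (vertical axis, scales differ between panels) of the genes of 6 lists in each of the 9 mice, with mice 1 and 9 in red. The ER stress markers rose least in mice 1 and 9, and the macrophage markers and glycogen breakdown genes had opposite signs there to those in the other 7 mice; in mouse 1 the breakdown mean holds the *Pygb* change of 0.62.

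The 11 measured genes listed as the form typical of muscle were *Hk2*, *Pfkm*, *Pgam2*, *Eno3*, *Ldha*, *Fbp2*, *Pygm*, *Phka1*, *Phkg1*, *Gys1* and *Ppp1r3a*, some of which other tissues express as well. Of these, 4 were called lower and 0 higher, beside 6.15% lower and 4.72% higher over all genes. The share called lower was 11.3% over genes above the median level and 20.4% in the top 10% of level, where *Ldha* and *Fbp2* did not lie. The median change was -0.11, with 10 of 11 changes negative. The glycogen breakdown genes had a median of -0.14 over 5 genes and the glycogen synthesis genes a median of -0.11 over 5 genes, with 2 called lower in each. The 5 genes from hexokinase to phosphofructokinase had a median of 0.15, with 1 called higher and 0 lower. These counts stand beside the same shares over all genes, and none was tested.

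Genes of the same pathways outside the list were called in both directions. The counts that follow stand beside 6.15% lower and 4.72% higher over all genes, and 11.3% lower and 6.86% higher over genes above the median level. Of 33 further glycolysis and glycogen genes measured, 7 were called lower and 3 higher. *Pgm2l1*, which makes the phosphoglucomutase cofactor glucose bisphosphate, changed by -0.29 ± 0.043 (SE; adjusted p = 0.00204), and *Epm2a*, which encodes the glycogen phosphatase laforin, by -0.30 ± 0.052 (SE; adjusted p = 0.00443). *Pgm5*, a relative of phosphoglucomutase found at cell junctions, changed by -0.33 ± 0.064 (SE; adjusted p = 0.00848), and *Pgm3*, an enzyme of hexosamine synthesis that feeds protein glycosylation, by 0.50 ± 0.090 (SE; adjusted p = 0.00553). *Pgm2l1*, *Epm2a* and *Pgm5* were lower in 9 of 9 mice. Each thus passed at an adjusted p at or below 0.00848, beside 0.0242 for *Phkg1* and 0.00772 for *Fbp2*.

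Glucose and lactate carriers had 4 of 10 genes called lower and 0 called higher, beside 6.15% and 4.72% of all genes, and the share of the list was not tested. *Slc2a12*, a glucose carrier of muscle and fat, changed by -0.44 ± 0.069 (SE; adjusted p = 0.00266), and *Slc37a4*, which carries glucose 6-phosphate into the ER, by -0.52 ± 0.11 (SE; adjusted p = 0.0105). The glucose carrier *Slc2a3* changed by -0.27 (adjusted p = 0.0189) and the lactate exporter *Slc16a3* by -0.23 (adjusted p = 0.0320). *Slc2a4*, the insulin-responsive glucose carrier of muscle, named here after its value was seen, changed by -0.19 and was not called (adjusted p = 0.0605).

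At the exit from glycolysis, 5 of 13 genes of the pyruvate dehydrogenase complex and its kinases and phosphatases were called lower and 0 higher. They included *Pdpr* (-0.24; adjusted p = 0.0136) and *Pdp1* (-0.19; adjusted p = 0.0362) of the activating phosphatase, the inhibiting kinase *Pdk1* (-0.20; adjusted p = 0.0392), and the complex subunit *Dld* (-0.14; adjusted p = 0.0468). Called lower were thus genes of the activating phosphatase and, of the inhibiting kinases, *Pdk1* alone, whose saline signal of 5.21 was below the median gene at 5.39. The kinase genes with stronger signals were not called: *Pdk2* (10.48) changed by -0.18 (limma adjusted p = 0.0634) and *Pdk4* (12.28) by -0.06 (limma adjusted p = 0.387). *Pdk3* changed by 0.14 (limma adjusted p = 0.155).

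Of 19 regulators of glycolytic and glycogen genes, 8 were called lower and 2 higher. *Myc*, a transcription factor that can raise glycolytic genes, was higher by 0.63 ± 0.088 (SE; adjusted p = 0.00154) and in 9 of 9 mice. *Nos1*, the neuronal nitric oxide synthase of muscle fibres, changed by -0.65 ± 0.093 (SE; adjusted p = 0.00171), *Ppargc1a*, a coactivator of oxidative metabolism, by -0.51 ± 0.082 (SE; adjusted p = 0.00306), and *Epas1*, a hypoxia-inducible factor, by -0.43 ± 0.072 (SE; adjusted p = 0.00365). The other hypoxia-inducible factor of the list, *Hif1a*, named here after its value was seen, was called higher, by 0.26 ± 0.065 (SE; adjusted p = 0.0260; higher in 8 mice). *Nos1*, *Ppargc1a* and *Epas1* were lower in 9 of 9 mice, and their changes were larger than that of any member called lower. Of 5 genes of the pentose phosphate pathway, *Pgd* was called higher, by 0.33 (adjusted p = 0.00764), and 0 were called lower.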

How the data were processed

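Total RNA of 18 gastrocnemius muscles, from both legs of 9 mice, was hybridised to MoGene-2_0-st arrays. The authors deposited 1 log2 signal per probeset and array, made by RMA (background correction, quantile normalization and median polish) in Partek Genomics Suite 6.6. Detection of single probesets was not assessed, and precision is limited by the number of arrays. Arrays can understate large changes, and their response near the top of the signal range was not assessed.

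Of 41345 probesets, 23521 carried 1 gene symbol in the platform annotation, 1820 carried several and 16004 were not listed. All 18 value columns were matched to samples by their titles. Probesets with 1 symbol were averaged per gene. Groups and mouse numbers were read from the labels. They state that each animal received both injections, so limma 3.58.1 (R 4.3.3; lmFit and eBayes, two-sided) was fitted with the mouse as a block, without a filter on level. As a check of the pairing, deviations of same-mouse legs from their group means correlated with a median r of 0.12 (-0.039 to 0.35), against -0.013 for legs of different mice, and 6 of 9 tunicamycin legs had their own mouse's saline leg as the closest. Isozymes were compared within mice by an exact sign-flip permutation test. The scripts were tested on simulated data.

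The members and gene lists were chosen with earlier results of these data known. Named are all members past the threshold, the main enzymes of muscle, the isozyme pairs, for each role without a call the member with the smallest p, and up to 4 called genes of every other list by p. Alternatives were the fit without the block, another quantile normalization, centring on array medians, the brightest probeset, genes above the median level, array weights, a trended and robust eBayes, a test per probeset, leaving out each mouse or mice 1 and 9, and covariates for slow fibres and adipocytes. Covariates for macrophages and for slow fibres alone were added after seeing the data.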

Additional observations from a re-analysis of the deposited data

Results flagged for a closer look

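Each gene was examined for a leg or a change that stood apart from the other 8 mice of its group. This was done for 93 groups of 9 values, of which 4 were marked, and chance marks about 1 in 20. For *Ldhb* the saline leg of mouse 8 stood apart, with a log2 signal of 7.25 beside 8.17 to 8.75 in the other saline legs. The change of *Ldhb* in mouse 8 was marked as well, at 0.99 beside -1.11 to -0.13, and it rests on the same saline leg. For *Pgam1* the tunicamycin leg of mouse 9 was low, at 6.41 beside 6.67 to 6.89. For *Pygb* the tunicamycin leg of mouse 1 was high, at 6.84 beside 6.08 to 6.39.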

How the results depend on the processing

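Beside 6 members called lower and 1 higher, the fit without the mouse block (no pairing) gave 3 lower (4.17% of all genes). With genes above the median level alone 11 were lower (16.7% of those genes), and with a trended and robust eBayes 10 (7.57% of all genes). Per probeset 1 was lower and 0 higher (2.55% and 1.93% of all probesets). Higher calls numbered 2 with the brightest probeset (4.83% of all genes) and 2 without mice 1 and 9 (7.05% of all genes). With slow fibre and adipocyte covariates 0 were lower and 0 higher (412 genes in all, beside 2410), with the macrophage covariate 0 and 0 (63 genes), and with the slow fibre covariate 2 and 0 (1286 genes). Leaving out 1 mouse at a time gave 1 to 8 lower, 0 to 2 higher, 1304 to 2787 genes in all and 0 to 3 isozyme differences, beside 2. Of the 2410 genes, the share called lower was 56.6%, against 49.4% after another quantile normalization and 69.0% after centring on array medians. *Fbp2* was called in 19 of 21 alternatives, and the other 6 called members in 10 to 14 of them. Reversed signs all belonged to changes that were not called. With the macrophage covariate they were *Hk1* -0.028, *Gapdh* -0.0025, *Pgk1* 0.011, *Ldha* 0.015, *Pygm* 0.028, *Pygb* 0.069, *Pgm2* -0.10 and *Ppp1r3c* 0.028. *Gapdh* was -0.0083 after centring and -0.016 with the brightest probeset. After another quantile normalization *Ldha* was 0.021 and *Pygb* 0.0021, and *Pygb* was 0.10 with slow fibre and adipocyte covariates. *Pygm* minus *Pygb* was 0.012 without mice 1 and 9. Leaving out 1 mouse gave -0.026 to 0.013 for *Ldha*, -0.084 to 0.041 for *Pygb*, -0.045 to 0.021 for *Ppp1r3c* and -0.061 to 0.053 for *Pygm* minus *Pygb*. The number of arrays, and not a detection limit known here, bounds how small a change could be called.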
